A study of Mus musculus with 10 samples.

Results

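The regions described here are the H3K4me3 peaks that were called in only one of 2 states of mouse neural stem and progenitor cells (NSPCs). They were chosen from 2 lists of broad peaks, restricted to chromosomes 1 to 19, by one rule. A quiescent peak was kept when it shared no base with any activated H3K4me3 peak, and an activated peak was kept when it shared no base with any quiescent one. Of 16584 quiescent peaks, 1523 (9.18%) were quiescent-only, and of 15417 activated peaks, 330 (2.14%) were activated-only, which makes 1853 regions of 32001 peaks in all. Both percentages are the rule itself and carry no test. The quiescent list was the longer of the 2, and with both cut to their 15417 strongest peaks by p-value the groups held 720 and 688 regions.

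The study compared chromatin in quiescent, activated and reactivated NSPCs. The cells were primary cultures from C57BL/6 mice at postnatal day 5, and all of them received FGF2 at 20 ng/ml. Activated NSPCs also received EGF at 20 ng/ml, and quiescent NSPCs received BMP4 at 25 ng/ml in place of EGF for 4 days, as the labels give it. Reactivated NSPCs had spent 4 days in BMP4 and were then returned to EGF and FGF2 for 9 to 12 days. H3K4me3 ChIP-seq had 1 library in each of the quiescent and activated states, with an input library for each, and ATAC-seq, which maps accessible DNA with a transposase, had 2 libraries in each of the 3 states. The numbers of peaks in the ATAC-seq lists were 55027 and 60881 for quiescent, 58618 and 47323 for activated, and 106586 and 107137 for reactivated NSPCs. A longer list overlaps more regions of any kind, so shares are compared between kinds of peak within a library. The lists carry no read totals, and the read numbers that the study gives in its supplement were not used here. With 1 H3K4me3 library per state, a difference between states and a difference in depth or antibody yield between the libraries cannot be told apart.

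H3K4me3, the trimethylated form of histone H3 at lysine K4, marks the start sites of genes that are transcribed or held ready for transcription, and its broadest and strongest domains sit on CpG-rich promoters. Weak, narrow H3K4me3 is also found at enhancers and at alternative promoters. BMP4 with FGF2 holds cultured NSPCs in a reversible quiescence in which they carry many genes of astrocytes, whereas EGF with FGF2 keeps them in cycle.

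As a check of the cell type, the stem and progenitor genes *Sox2*, *Nes*, *Pax6*, *Vim* and *Fabp7* had an H3K4me3 peak within 1 kb of a transcription start site (TSS) in both states. *Sox2* had fold enrichments over input of 38.6 in the quiescent and 32.5 in the activated list, and *Nes* had 16.4 and 46.8. *Gfap*, a gene of astrocytes and adult neural stem cells, had no H3K4me3 peak at a TSS in either state. None of 12 microglia and macrophage genes had a peak in either state, and 4 of 17 endothelial, mural and fibroblast genes had one in both, where 61.0% of all coding genes had one in both and 37.5% in neither. In lists of other neural cell types, 6 of 10 ependymal, 9 of 17 oligodendrocyte lineage and 15 of 20 mature neuron genes had one in both states.

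Sequence is shown first for regions with an ATAC-seq peak in 1 of the quiescent and activated states. All of those shown also had a peak in both reactivated libraries. These are 200 bases of the plus strand of GRCm38 (mm10), centred on the strongest ATAC-seq summit of the region's own state. All but 1 of them belong to the 5 regions of each group with the highest H3K4me3 fold enrichment among those with an ATAC-seq peak in both libraries of their own state and in neither library of the other. Not all 10 are shown, and the windows of *Cd59a* and *Zfp973* are left out because more than 30 of their bases are untranslated exon. The *Nfib* window was added after its values were seen. Capitals mark 3 kinds of match on either strand, which are the E-box CAGCTG, the NFI motif TTGGC and the AP-1 site TGANTCA. A match is a run of letters and not a shown binding site.
Nfib, quiescent-only, chr4:82704995-82705194: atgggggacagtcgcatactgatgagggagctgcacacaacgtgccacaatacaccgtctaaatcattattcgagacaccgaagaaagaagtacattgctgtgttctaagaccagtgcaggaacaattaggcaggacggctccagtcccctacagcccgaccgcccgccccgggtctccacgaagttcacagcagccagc
Unc45b, quiescent-only, chr11:82915094-82915293: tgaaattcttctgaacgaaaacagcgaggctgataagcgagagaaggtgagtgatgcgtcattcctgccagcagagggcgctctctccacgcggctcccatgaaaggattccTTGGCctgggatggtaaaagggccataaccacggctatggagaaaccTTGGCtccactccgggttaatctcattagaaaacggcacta
upstream of Ankrd33, quiescent-only, chr15:101105492-101105691: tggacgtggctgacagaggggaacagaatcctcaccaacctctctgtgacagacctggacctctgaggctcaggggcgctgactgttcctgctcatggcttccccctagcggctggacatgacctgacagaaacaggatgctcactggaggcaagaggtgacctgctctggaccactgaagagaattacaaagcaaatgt
downstream of Myc, activated-only, chr15:62106675-62106874: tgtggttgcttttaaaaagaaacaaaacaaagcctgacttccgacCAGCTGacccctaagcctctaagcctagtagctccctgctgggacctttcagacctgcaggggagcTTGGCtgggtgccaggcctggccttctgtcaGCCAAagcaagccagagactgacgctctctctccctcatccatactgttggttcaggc
Vwa5b1, activated-only, chr4:138635855-138636054: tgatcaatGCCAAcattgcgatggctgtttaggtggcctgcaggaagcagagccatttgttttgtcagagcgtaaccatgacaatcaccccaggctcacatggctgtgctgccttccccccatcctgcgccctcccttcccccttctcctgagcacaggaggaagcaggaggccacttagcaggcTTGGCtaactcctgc
Prkcz, activated-only, chr4:155283236-155283435: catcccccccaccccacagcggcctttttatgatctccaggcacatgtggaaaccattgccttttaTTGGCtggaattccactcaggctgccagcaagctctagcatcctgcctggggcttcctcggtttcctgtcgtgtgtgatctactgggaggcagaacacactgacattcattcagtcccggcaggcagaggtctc
Scml4, activated-only, chr10:42934838-42935037: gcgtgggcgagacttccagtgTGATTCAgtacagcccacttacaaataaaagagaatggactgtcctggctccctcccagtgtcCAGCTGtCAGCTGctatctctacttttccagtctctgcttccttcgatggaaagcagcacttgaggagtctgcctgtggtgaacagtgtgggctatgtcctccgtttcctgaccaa
downstream of Hs3st4, activated-only, chr7:124708831-124709030: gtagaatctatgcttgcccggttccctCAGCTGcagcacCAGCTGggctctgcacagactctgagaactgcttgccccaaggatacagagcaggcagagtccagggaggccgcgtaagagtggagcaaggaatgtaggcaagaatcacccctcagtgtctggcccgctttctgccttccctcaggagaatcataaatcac
The 3 quiescent-only windows held no E-box, whereas the activated-only windows at *Scml4* and downstream of *Hs3st4* held 2 each and the one downstream of *Myc* held 1. The summit lay inside the H3K4me3 region in the *Nfib*, *Ankrd33*, *Vwa5b1*, *Scml4* and *Hs3st4* windows. It lay outside, by 30 bp at *Unc45b*, 144 bp downstream of *Myc* and 26 bp at *Prkcz*, since an ATAC-seq peak that crosses the edge of a region counts as overlapping it.

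Regions of one state were narrow and weak in both groups. The median width was 369 bp for quiescent-only and 349.5 bp for activated-only peaks, against 1863 and 1739 bp for the shared peaks of the same lists. The median fold enrichment over input was 3.59 and 3.68, against 31.9 and 29.5. The strongest quiescent-only peak reached the 31.3rd percentile of fold enrichment in its list, and the strongest activated-only peak the 25.3rd. Because a weak peak in one list is readily missed in the other, the closest comparison is the weakest 25% of the shared peaks by fold enrichment (n = 3766 and 3772), which had medians of 768 and 654 bp and of 6.08 and 5.58. All of these values are tied to the rule and are given as a description. Only 69 quiescent-only peaks (4.53%) and 25 activated-only peaks (7.58%) were wider than 1000 bp.

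**Figure D1:**
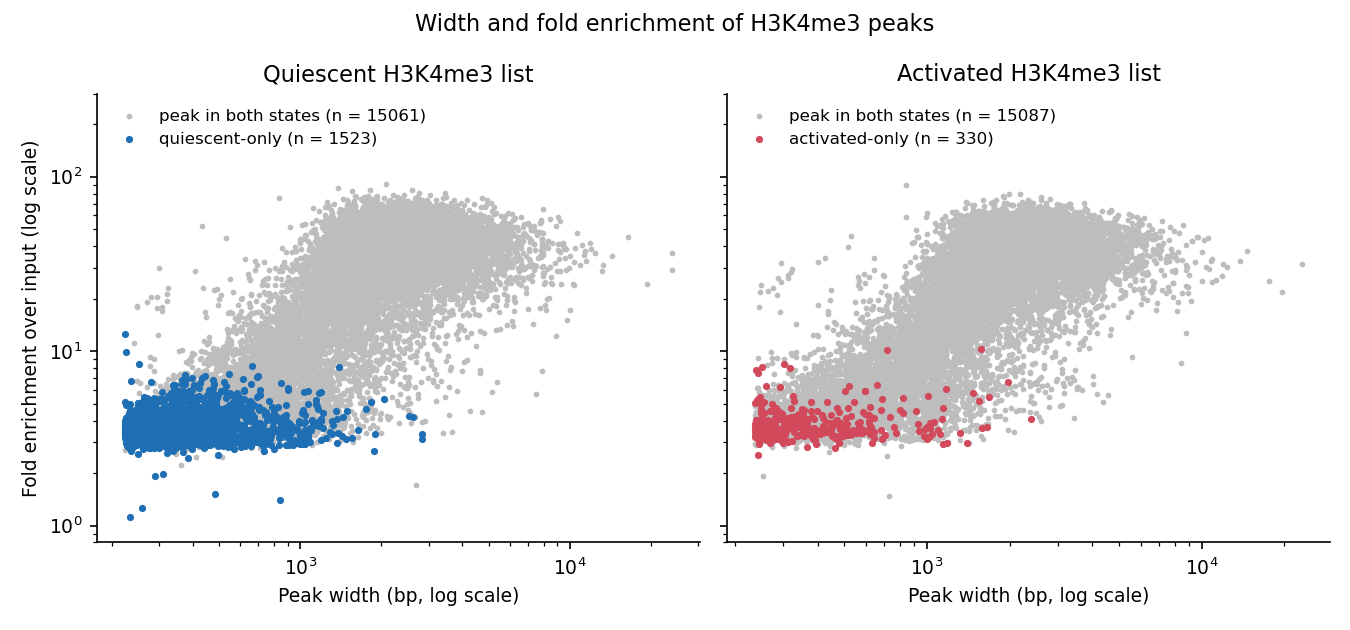
H3K4me3 peaks by width in bp (x axis, log scale) and fold enrichment over input (y axis, log scale), with quiescent peaks on the left and activated peaks on the right. Coloured points are the 1523 quiescent-only and 330 activated-only peaks and grey points are peaks that overlap one of the other state, and the coloured points lie in the narrow, weak corner with medians of 369 and 349.5 bp.

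At the edge of the rule, the groups touched. Near *Tox3* a quiescent-only peak of fold enrichment 3.73 and an activated-only peak of 3.66 lay 20 bp apart, and near *Etv5*, an ETS factor gene induced by FGF and EGF signalling, 2 such peaks of 3.58 and 3.20 lay 62 bp apart. Just outside the rule, peaks near *Fstl4* shared 25 bp, peaks near *Ptprz1* 31 bp and peaks near *Col4a4* 32 bp. Most regions were far from this edge, since the median distance to the nearest H3K4me3 peak of the other state was 29326 bp for quiescent-only and 29822.5 bp for activated-only regions, and 13 and 9 regions lay within 1 kb of one. There were 35 clusters of quiescent-only regions within 10 kb of each other, holding 73 regions, and no such cluster of activated-only regions.

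Both groups lay mostly away from annotated promoters. A TSS of any gene in GENCODE M21 lay within 1 kb of 460 quiescent-only peaks (30.2%, 95% interval 27.9 to 32.6) and of 78 activated-only peaks (23.6%, 19.2 to 28.6). The share was 84.5% and 84.4% in the shared peaks and 50.03% and 49.6% in their weakest 25%. Introns held 33.9% and 36.1% of the 2 groups, intergenic sequence 28.9% and 33.0%, and exons 6.96% and 7.27%. Intervals here are exact binomial (Clopper-Pearson) ones, cover counting error only, and treat regions as independent.

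**Figure D2:**
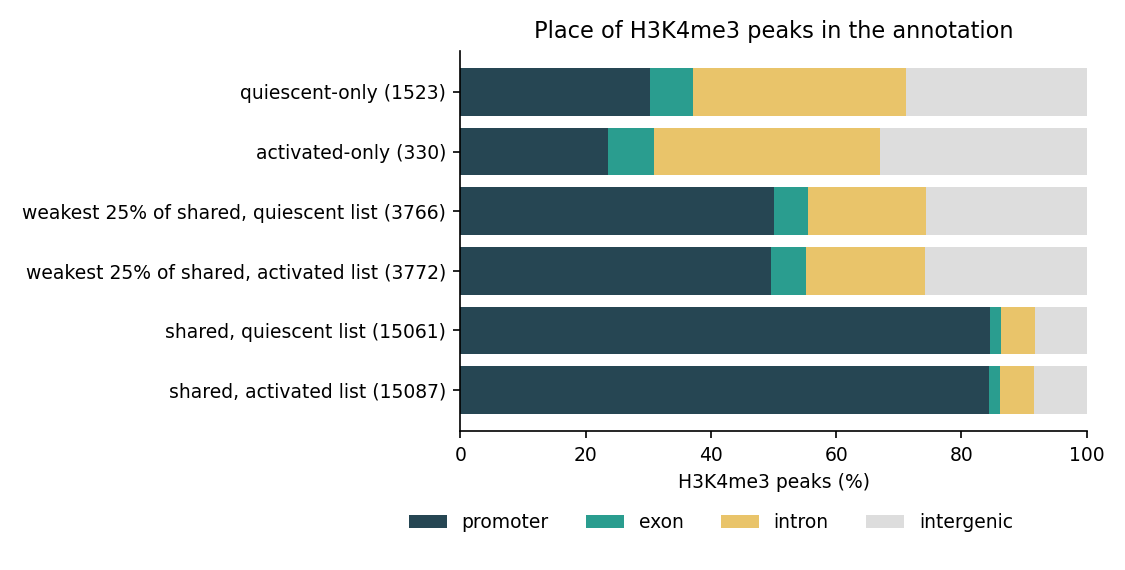
Share of H3K4me3 peaks (x axis, %) within 1 kb of a TSS, in exons, in introns and in intergenic sequence, for each kind of peak, with the number of peaks in brackets. Promoters hold 30.2% of quiescent-only and 23.6% of activated-only peaks, about 50% of the weakest 25% of shared peaks and about 84% of all shared peaks.

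The sequence under the regions was poorer in CpG than that under shared peaks. The CpG ratio, observed over expected from the C and G content, had a median of 0.376 in quiescent-only and 0.329 in activated-only peaks, against 0.606 and 0.619 in shared peaks and 0.480 and 0.496 in their weakest 25%. At promoters the medians of the peaks differed. Quiescent-only promoter peaks had a median ratio of 0.526 and 40.7% of them were above 0.6, whereas activated-only promoter peaks had a median of 0.333 and 21.8% above 0.6. The weakest shared promoter peaks had medians of 0.587 and 0.604. This holds for the sequence under the peaks. The 300-base RefSeq promoters of genes with a region at a TSS had the reverse order. Their median ratio was 0.507 for 342 quiescent-only and 0.611 for 66 activated-only promoters, with GC of 58.3% and 62.8%. These promoters need not be the regions' own start sites, since 26.2% and 55.6% of such genes also had a shared peak at a TSS. For genes with H3K4me3 at a TSS in quiescent only or activated only, the ratios kept that order, at 0.446 and 0.515. GC did not, at 57.7% for 234 quiescent and 56.3% for 19 activated promoters. Away from promoters, the median ratios of the peaks in the groups were 0.335 and 0.325.

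**Figure D3:**
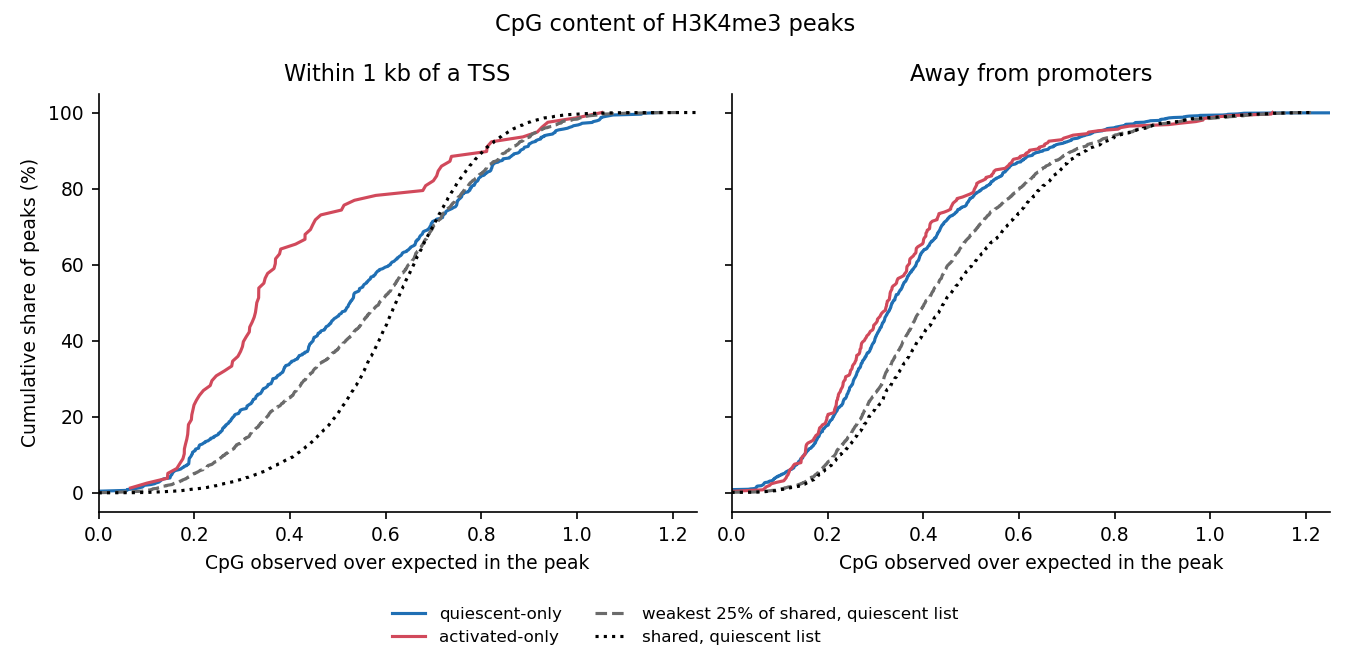
Cumulative share of peaks (y axis, %) up to a given CpG observed over expected ratio (x axis), for peaks within 1 kb of a TSS (left) and away from promoters (right). At promoters the activated-only line (median 0.333) lies left of the quiescent-only line (0.526), and away from promoters the 2 lines run together (0.325 and 0.335).

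Some of the highest fold enrichments fell in repeat-masked sequence or near multicopy genes. How well reads can be placed there was not measured. Of the 10 highest activated-only peaks, those nearest *En1* and *Lsm8* lay wholly in repeat-masked bases and those nearest *Tmprss12* and *Ccl28* were 88.0% and 83.8% masked. The highest quiescent-only peak, of 12.5-fold over 224 bp, lay on chromosome 12 and 353254 bp from the nearest coding gene, *Gm10330*, and the next, of 9.84-fold, was nearest *Vmn2r33*, a member of a large pheromone receptor family. *H2-Q1* (quiescent-only) and *H2-Q2* (activated-only) are closely related class I histocompatibility genes, and a one-state peak at either is uncertain. These last 4 regions held no masked bases. In all, 57 quiescent-only peaks (3.74%) and 25 activated-only peaks (7.58%) were masked over more than 50% of their bases, and 6 quiescent-only peaks had a fold enrichment under 2.

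A quiescent-only peak lay within 1 kb of a TSS of 367 protein-coding genes (1.77% of 20780), and an activated-only peak at 54 genes (0.26%). Of these, 271 and 24 genes had no shared peak at any of their start sites. Counted by gene rather than by region, 282 genes (1.36%) had H3K4me3 at a TSS in the quiescent list only and 25 (0.12%) in the activated list only, while 12672 (61.0%) had it in both. With lists of equal length the one-state genes numbered 167 and 69. *Vit* was the 1 gene with a region of each group at its start sites.

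Among genes of astrocytes and quiescent stem cells, 6 of 38 (15.8%) had a quiescent-only peak at a TSS, beside 1.77% of all coding genes, and none had an activated-only peak, where the background of 0.26% also gives a count near 0. The 6 included *Aqp4*, *Nfib*, *Clu*, *Apoe* and *Ntsr2*. By gene, 29 of the 38 had H3K4me3 at a TSS in both states, *Nfib* among them, 5 in the quiescent list only and 4 in neither, which is 76.3% in both states where all coding genes have 61.0% in both, 1.36% in quiescent only and 37.5% in neither. The list was drawn up with earlier results of these data known, so the count is a description.

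*Aqp4* encodes the water channel of astrocyte end-feet. Its quiescent-only peak was 1748 bp wide with a fold enrichment of 4.65, lay across the start site on chromosome 18, and overlapped no peak in any of the 6 ATAC-seq lists. The nearest activated H3K4me3 peak was 250034 bp away.

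*Nfib* encodes a nuclear factor I protein of glial and stem cells. Its peak (chr4:82704515-82705209, 4.77-fold) lay 541 bp into the gene from a start site, with ATAC-seq values of 6.44 and 5.04 in quiescent, no peak in activated, and 4.24 and 7.14 in reactivated NSPCs. *Nfib* had a shared H3K4me3 peak at another of its start sites, so the gene as a whole was marked in both states.

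*Apoe*, the main lipid carrier made by astrocytes, had a weak quiescent-only peak of 3.44-fold (chr7:19698466-19699079). ATAC-seq peaks there were 3.64 and 2.84 in quiescent, absent in both activated, and 7.15 and 6.91 in reactivated libraries. The *Nfib* and *Apoe* regions thus shared a pattern, with peaks in both quiescent and both reactivated libraries and in no activated one. The pattern was not particular to them, since the quiescent-only regions at *Cd59a* and *Kcna6* had it too. Of all quiescent-only regions, 77.5% and 78.2% had a peak in the reactivated libraries.

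*Clu*, which encodes the chaperone clusterin, and *Ntsr2*, a neurotensin receptor of astrocytes, had ATAC-seq peaks in all 6 lists. At *Clu* (4.72-fold for H3K4me3) the quiescent libraries gave 6.31 and 3.59, the activated ones 5.01 and 5.12, and the reactivated ones 7.25 and 5.67, so the quiescent and activated ranges overlapped. At *Ntsr2* (3.43-fold) they were 4.87 and 5.96, 3.45 and 5.52, and 10.6 and 10.03, and the quiescent and activated ranges again overlapped.

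Lists for the culture conditions and the cell cycle had no region at a start site. No gene of 33 in the BMP pathway, of 28 responding to EGF, FGF and ERK, of 24 proneural and neuroblast genes or of 38 cell cycle genes had a region of either group at a TSS. With 1.77% and 0.26% of all coding genes as background, lists of this size hold few such genes, so these counts are not a result about the lists. Clusters of quiescent-only regions lay in introns away from start sites, with *Egfr* (2 regions) and *Etv5* (3 regions) as the nearest coding genes, and are not in these counts. All 38 cell cycle genes, 32 BMP genes, 27 EGF, FGF and ERK genes and 21 proneural genes had H3K4me3 in both states, as had 61.0% of all coding genes.

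Some genes of other lineages appeared in the quiescent-only group and at weak levels. None of 12 microglia and macrophage, 17 endothelial, mural and fibroblast or 10 ependymal genes had a region of either group at a TSS. Of 17 oligodendrocyte lineage genes, 1 (*Nkx2-2*) had a quiescent-only peak, beside 1.77% of all coding genes. Lists of this size hold few such genes, so these counts are not a result about the lists. Of 185 genes in developmental transcription factor families, 14 (7.57%) had a quiescent-only peak at a TSS, beside 1.77% of all coding genes. None had an activated-only one, beside 0.26% of all coding genes, which for a list of this size is near the background. The 14 included *Tbx3* (4.01-fold, with ATAC-seq peaks in all 6 lists), *Hoxc6* (4.24-fold), *Gata6* (3.81-fold), *Nkx2-2* (3.34-fold), a factor of ventral progenitors and oligodendrocytes, and *Nkx6-1* (3.22-fold). Of 20 mature neuron genes, 2 had a quiescent-only peak, beside 1.77% of all coding genes, among them *Gad2*, which encodes a GABA-synthesising enzyme (4.57-fold). *Gad2* and *Nkx6-1* had ATAC-seq peaks in both activated and neither quiescent library, the state opposite to their H3K4me3 peak. The activated values were 5.29 and 3.28 at *Gad2* and 2.92 and 2.57 at *Nkx6-1*. Those at *Nkx6-1* were among the weakest of their lists, at percentiles 12.5 and 4.63.

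Of 197 ion channel genes, 14 (7.11%) had a quiescent-only peak, beside 1.77% of all coding genes, and 1 (0.51%) an activated-only one, beside 0.26%. *Kcna6*, a voltage-gated potassium channel (3.99-fold), had ATAC-seq peaks of 3.65 and 2.37 in quiescent and none in activated libraries. *Kcnip1*, which encodes a potassium channel-interacting protein, was the activated-only gene at 4.15-fold, with ATAC-seq peaks in all 6 lists. Of 91 extracellular matrix and integrin genes, 5 (5.49%) were quiescent-only, beside the same 1.77%, and *Lama3*, a laminin chain, was the 1 (1.10%, beside 0.26%) that was activated-only, at 4.52-fold. *Col6a2*, a collagen VI chain, was quiescent-only at 5.59-fold but had ATAC-seq peaks of 4.24 and 2.57 in the activated libraries and none in the quiescent ones. In the interferon and antigen presentation list, 1 of 22 genes (*Ifit1*) had a quiescent-only peak, which it shares with *Ifit1bl2*. With 22 genes, this count is near the 1.77% of all coding genes.

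The strongest quiescent-only region at a protein-coding start site was that of *Apc2*, a neural relative of the Wnt regulator *Apc*. A cluster of 3 quiescent-only regions lay at this gene, from chr10:80295881 to 80302623. The strongest (8.11-fold, 1392 bp) had ATAC-seq fold enrichments of 10.4 and 10.7 in the quiescent libraries, 5.54 and 5.48 in the activated ones and 12.2 and 9.88 in the reactivated ones. Both quiescent values were above both activated ones.

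*Cyp1a1*, a xenobiotic-metabolising enzyme under the aryl hydrocarbon receptor, came next at 7.43-fold (chr9:57696269-57696813, 800 bp upstream of the start site), with no ATAC-seq peak in any list. *Tgfb3*, a transforming growth factor ligand, had a quiescent-only peak of 6.86-fold. The quiescent ATAC-seq libraries gave 5.41 and 5.20 there and the activated ones 7.92 and 5.42. As percentiles within each ATAC-seq list, these were 69.5 and 74.2 in quiescent and 79.9 and 63.9 in activated, so the ranges overlapped. *Mef2b* at 6.57-fold and *Btn2a2* at 6.40-fold also had ATAC-seq peaks in all 6 lists. *Scrg1*, a gene of glia and mesenchymal cells, had one of the widest regions of the group (2040 bp, 5.34-fold), with ATAC-seq values of 9.86 and 10.8 in quiescent and 4.64 in 1 activated library only. The widest quiescent-only region was at *Amotl2*, which encodes an angiomotin-like protein (2834 bp, 3.14-fold).

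The strongest activated-only region was at *Plekhg5*, which encodes a guanine nucleotide exchange factor (chr4:152072476-152074053, 1578 bp, 10.3-fold). Fold enrichment for ATAC-seq stood at 4.80 and 5.13 in the quiescent lists, at 6.45 and 7.27 in the activated lists, and at 9.04 and 9.26 in the reactivated lists. Both activated values were above both quiescent ones, but these values are not normalized between libraries. As percentiles of fold enrichment within each ATAC-seq list, they were 61.9 and 73.7 in quiescent and 70.8 and 80.0 in activated, so the ranges overlapped. The region was accessible in every list.

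The coding gene nearest to another wide activated-only region was *Myc*, the growth-promoting transcription factor gene, whose start site is 119497 bp upstream. The region (chr15:62106919-62108892, 1974 bp, 6.67-fold) lay at the start site of the non-coding gene *Gm27718*. ATAC-seq values were 6.64 and 6.27 in activated and 9.18 and 9.996 in reactivated libraries, with no peak in either quiescent library. Whether the region acts on *Myc* cannot be read from peak lists.

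The other activated-only regions with this ATAC-seq pattern and the highest fold enrichments were at *Vwa5b1* (6.05-fold, ATAC-seq 4.11 and 5.53 in activated), in an intron 10320 bp upstream of the nearest start site of *Prkcz*, an atypical protein kinase C gene (5.89-fold, 4.74 and 3.83), at *Scml4*, a Polycomb-related gene (5.76-fold, 2.65 and 2.83), and at the non-coding gene *3100003L05Rik*, with *Hs3st4* as the nearest coding gene 724391 bp away (5.43-fold, 4.51 and 5.28). A region nearest *Usp31* (1548 bp, 5.18-fold) had the highest activated ATAC-seq values of the named activated-only regions, 10.04 and 9.53, and none in quiescent. *Gas7* (1652 bp, 3.65-fold) had 4.95 and 3.44 in activated and none in quiescent. *Igf2bp3*, which encodes an oncofetal RNA-binding protein, had an activated-only region 1581 bp wide at 3.62-fold, with ATAC-seq values of 3.38 and 4.18 in activated and 2.29 in 1 quiescent library. The widest activated-only region was in an intron of *Amotl1*, a paralogue of *Amotl2* (2393 bp, 4.10-fold).

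**Figure D4:**
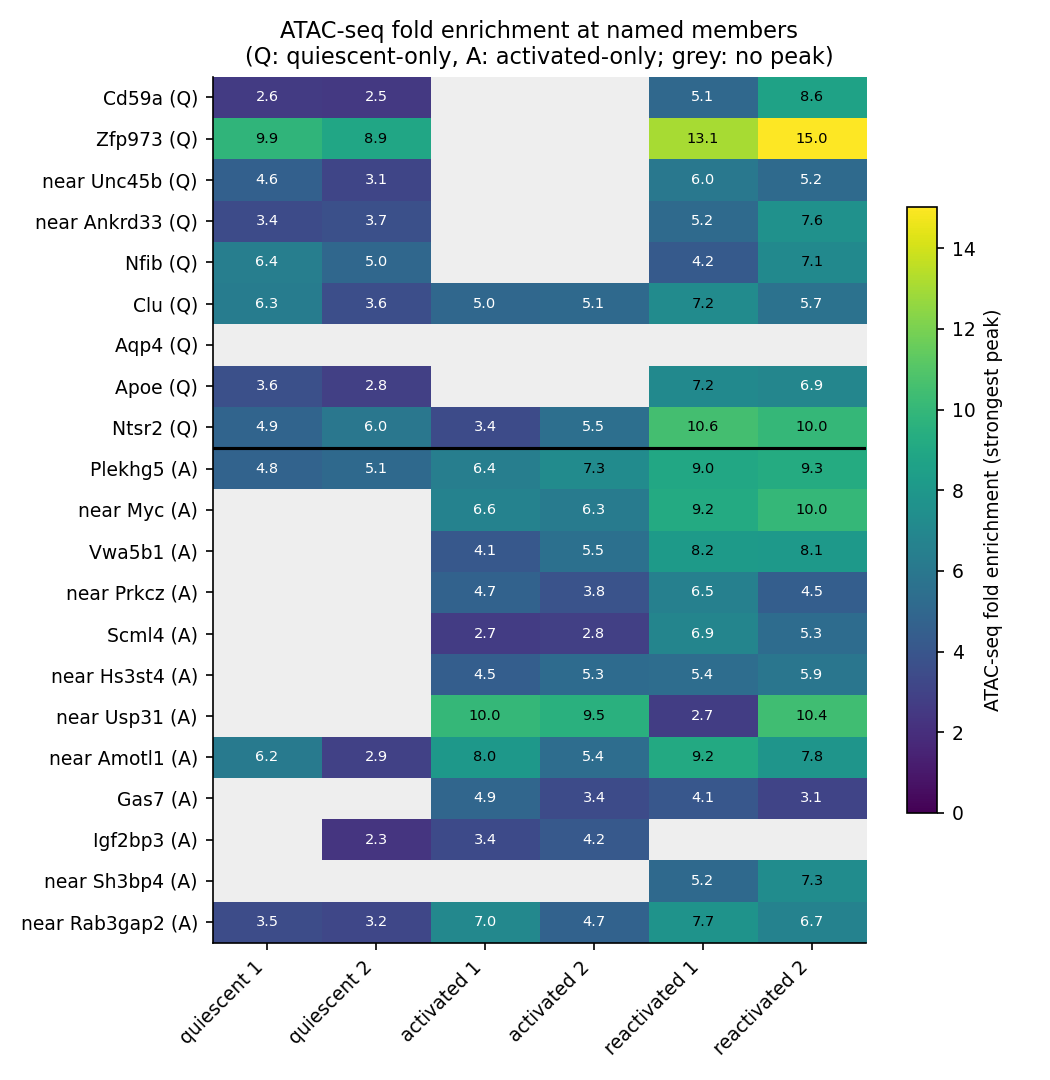
ATAC-seq fold enrichment of the strongest peak overlapping each named region (colour and printed value, linear scale) in the 6 libraries (columns), for quiescent-only regions of the astrocyte list or with the highest H3K4me3 fold enrichment among those with the quiescent ATAC-seq pattern (Q, above the line) and for activated-only regions that were widest or highest among those with the activated pattern (A, below it). Grey means no peak, which at Nfib and Apoe holds in both activated libraries and downstream of Myc in both quiescent ones, while all rows but Aqp4 and Igf2bp3 are filled in both reactivated columns.

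Across all regions, accessibility followed the H3K4me3 state only in part. In the quiescent ATAC-seq libraries 44.7% and 48.7% of quiescent-only and 34.5% and 37.6% of activated-only regions had a peak, which is 10.2 and 11.1 percentage points more in the quiescent-only group. The mean of these 2 differences was 10.7 points, and 6.71 points with H3K4me3 lists of equal length. The shares themselves depend on what counts as a peak in a region: the means of 46.7% and 36.1% became 30.0% and 20.8% when the ATAC-seq summit had to lie inside. In the activated libraries the shares were 54.0% and 44.7% against 53.6% and 46.7%, and the differences of 0.40 and -1.95 points were smaller than the gap between the 2 activated libraries. In the reactivated libraries the shares were 77.5% and 78.2% against 74.8% and 73.6%. The weakest 25% of shared peaks in the quiescent list stood higher than both groups in each library, with 54.1% and 56.8% for the quiescent libraries, 65.0% and 56.7% for the activated ones and 88.9% and 88.3% for the reactivated ones. Those of the activated list had 53.0% and 55.9%, 63.7% and 55.6%, and 88.4% and 87.5%. These shared peaks were wider than the regions, with medians of 768 and 654 bp against 369 and 349.5 bp. Here and below, the shares were not adjusted for width.

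**Figure D5:**
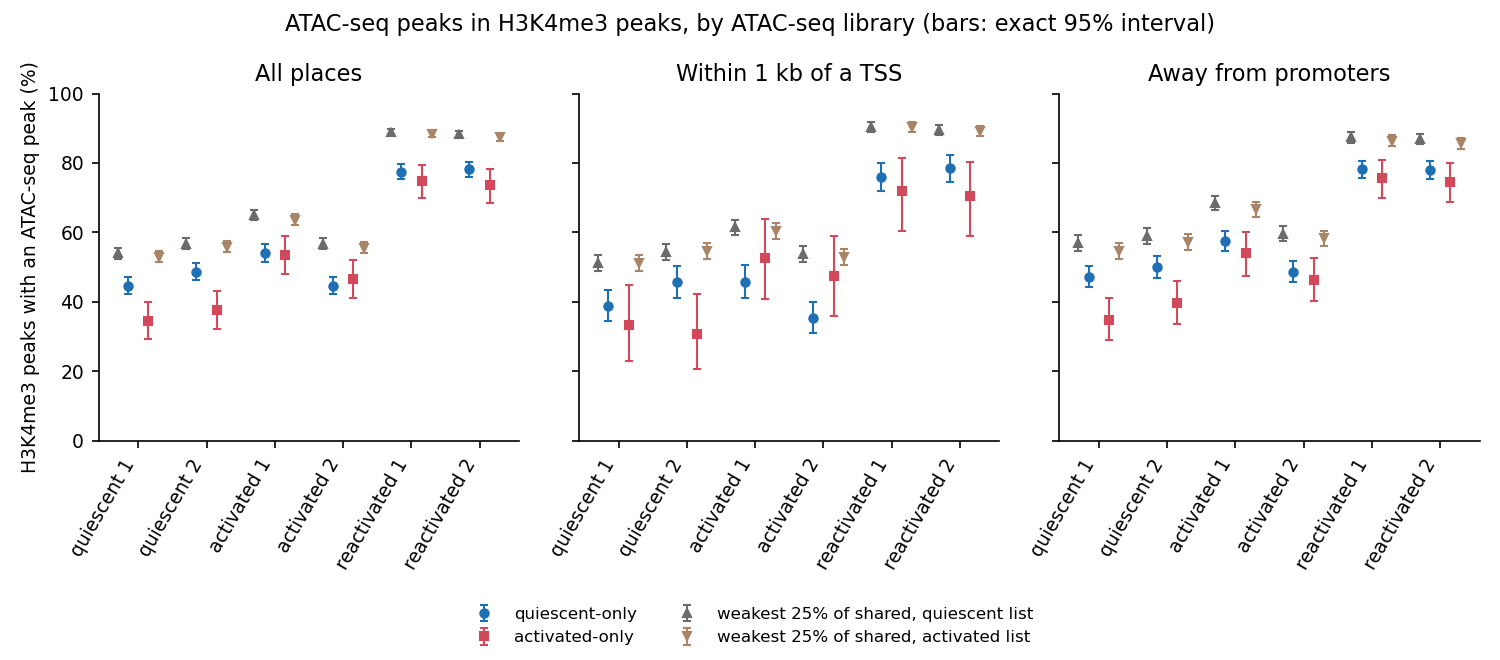
Share of H3K4me3 peaks with an ATAC-seq peak (y axis, %) in each of the 6 ATAC-seq libraries (x axis) for all places, within 1 kb of a TSS and away from promoters. Points are shares and bars are exact 95% intervals for counting error, and over all places quiescent-only regions stand above activated-only ones in both quiescent libraries by 10.2 and 11.1 points.

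Few regions had an ATAC-seq peak in both libraries of 1 state and in neither of the other, a definition that leaves out regions where the 2 libraries of a state differ. Mixed patterns were the largest class, with 513 quiescent-only (33.7%) and 104 activated-only regions (31.5%). Of quiescent-only regions, 462 (30.3%) had a peak in all 4 quiescent and activated libraries, and 47 (3.09%) had one in both quiescent and neither activated library, while 75 (4.92%) had the opposite pattern. Of activated-only regions, 79 (23.9%) were in all 4 libraries, 39 (11.8%) in both activated and neither quiescent library, and 6 (1.82%) the opposite. Among shared peaks of the quiescent list the own-state and opposite shares were 0.81% and 1.96%, and in their weakest 25% 1.86% and 5.42%. For the activated list they were 2.08% and 0.81% among shared peaks and 5.46% and 2.01% in their weakest 25%, so the activated ATAC-seq pattern was the more frequent of the 2 in shared peaks of both lists. Shared peaks of the quiescent and activated lists were in all 4 more often, at 77.2% and 76.5%, and so were their weakest 25%, at 40.7% and 39.5%. No peak in any of the 6 lists was found at 254 quiescent-only (16.7%) and 65 activated-only regions (19.7%), against 2.35% and 2.53% of shared peaks and 8.02% and 8.40% of their weakest 25%. A peak in both reactivated libraries alone was found at 172 (11.3%) and 37 (11.2%), which is no more than the 13.0% and 13.2% of the weakest shared peaks.

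At coding start sites, 15 of 366 quiescent-only regions had the quiescent ATAC-seq pattern, among them those of *Cd59a*, an inhibitor of complement (6.18-fold), *Nmb*, *Cpeb1* and *Ddo*, and 9 had the opposite pattern. Of the 53 activated-only regions at coding start sites, 7 had the activated pattern, among them those of *Vwa5b1*, *Scml4*, *Klhdc7a*, *Gas7*, *Shb* and *Pip5k1b*, and 0 the opposite. Within 1 kb of a TSS of any gene, 3.48% of 460 quiescent-only regions had the quiescent and 2.61% the activated pattern. Of 78 activated-only regions there, 12.8% had the activated and 0% the quiescent pattern. The weakest shared promoter peaks, also at a TSS of any gene, already had the activated pattern more often. They had 1.80% quiescent and 4.99% activated in the quiescent list and 2.14% and 4.76% in the activated list. Among regions wider than 1000 bp, 7 of 25 activated-only (28.0%) and 1 of 69 quiescent-only regions (1.45%) had the ATAC-seq pattern of their own state. Among the weakest 25% of shared peaks, those of that width had it in 51 of 815 (6.26%) and 15 of 1124 (1.33%).

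The E-box seen in the printed sequences was also counted in all regions with ATAC-seq peaks of their own state, which are 143 of 330 activated-only and 601 of 1523 quiescent-only regions. In windows of 300 bases at the strongest own-state ATAC-seq summit, taken where both libraries of that state had a peak, CAGCTG was found in 59 of 143 activated-only windows (41.3%, 33.1 to 49.8) and in 173 of 601 quiescent-only windows (28.8%, 25.2 to 32.6). The 2 intervals did not overlap, and no test was made. The weakest 25% of shared peaks gave 30.9% in the activated and 27.0% in the quiescent list, and 300-base promoters of all genes in RefSeq (GRCm38.p6) gave 16.3%. In the RefSeq promoters of the genes with a region at a TSS, the groups did not show this difference, with the E-box in 11 of 66 activated-only promoters (16.7%) and 62 of 342 quiescent-only ones (18.1%). Split by place, the intervals of the summit windows overlapped. Away from promoters the shares were 40.9% (31.6 to 50.7) and 30.3% (26.1 to 34.8), and at promoters 42.4% (25.5 to 60.8) and 24.4% (17.9 to 31.9). Shared peaks away from promoters had the same direction, with 31.2% in the activated and 25.4% in the quiescent list, and 33.5% and 27.4% in their weakest 25%. The NFI motif TTGGC was found in 62.9% of activated-only and 57.9% of quiescent-only windows, and the AP-1 site TGANTCA in 10.5% and 9.65%. The intervals of the 2 groups overlapped for both of these. Median GC content was 52.7% in activated-only and 53.0% in quiescent-only windows, and the median CpG ratio was 0.295 and 0.340. At promoters the windows differed more, with GC of 55.0% and 57.3% and CpG ratios of 0.269 and 0.425. The part of base composition in the E-box shares was not tested.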

How the data were processed

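The H3K4me3 and ATAC-seq peak lists were used as deposited. Per the study's methods, the authors aligned reads to mm10 with Bowtie2 (2.2.5 in the submitters' processing notes), removed duplicates with Picard 1.88 and SAMtools 1.3.1, and called peaks with MACS, as broad peaks against input for H3K4me3, in each library separately. The methods name a shorter BMP4 exposure for ATAC-seq than the labels. The fold enrichment that the authors deposited is a ratio of pileup to background on a linear scale, not normalized between libraries. The authors' −log10 of the p-value and of the q-value, also deposited, refers to 1 library at a time and grows with its depth. The deposited score, 10 times the −log10 q, was not used.

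Overlap needed 1 shared base. Promoters lay within 1 kb of a TSS of GENCODE M21 (GRCm38), and other regions were assigned to exons, then introns, then intergenic sequence. Sequence came from RefSeq GRCm38.p6. Python 3.11.15, numpy 2.4.6, pandas 2.3.3, scipy 1.17.1, pysam 0.24.0 and matplotlib 3.10.9 were used. Overlaps and distances were tested on simulated intervals. Named regions were the 10 with the highest fold enrichment, the 10 highest at coding start sites, the 10 widest, those at genes of the lists, and the 5 highest with ATAC-seq in both own-state libraries and neither of the other state. The text gives a selection of them, and the few others it names were chosen after their values were seen. The regions and gene lists were chosen with earlier results of these data known. No test across states was made, since each state had 1 H3K4me3 library. Some regions that the rule names are not reported here.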

Additional observations from a re-analysis of the deposited data

Results flagged for a closer look

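At promoters, the quiescent-only group had the larger share of regions with an ATAC-seq peak in both quiescent libraries, by 5.58 and 14.9 percentage points, and the smaller share in both activated libraries, by -6.69 and -12.0 points, relative to the activated-only group (460 and 78 regions). At promoters the differences in the quiescent libraries thus had the opposite sign to those in the activated ones. Away from promoters, where most regions lay (1063 and 252), they did not: the quiescent-only share was higher in the quiescent libraries, by 12.3 and 10.4 points, and also in the activated ones, by 3.60 and 2.30 points. At promoters the exact 95% intervals of the 2 groups overlapped in each of the quiescent and activated libraries. The quiescent-only promoter shares in the 2 activated libraries themselves were 45.9% and 35.4%. The difference between states was not tested.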

How the results depend on the processing

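Several results changed with the processing, and the cause was not tested. With both H3K4me3 lists at the same length, there were 720 quiescent-only and 688 activated-only regions in place of 1523 and 330, and 167 and 69 one-state genes in place of 282 and 25, so the groups were then of nearly the same size in regions but not in genes. Members with a −log10 q of at least 5 numbered 599 and 85, and with both lists so limited 1095 and 217.

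The promoter share of quiescent-only regions was 35.9% when a region could be covered up to 50%, 34.9% with equal lists, 36.1% for members with −log10 q of at least 5, 39.1% with both lists so limited, 34.9% with a 2 kb window and 24.0% for coding start sites. That of activated-only regions was 29.4% for members with −log10 q of at least 5 and 16.1% for coding start sites.

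The difference in ATAC-seq share, averaged over the quiescent libraries (10.7 points), was 13.1 with 50% coverage, 6.71 with equal lists, 19.6 for members with −log10 q of at least 5, 15.6 with both lists so limited, 6.74 with ATAC-seq peaks of −log10 q of at least 10 and 9.25 with the summit inside the region. Over the activated libraries (-0.78) the mean was -3.54 with equal lists, 1.75 with both lists limited and 2.68 with the summit inside. The shares themselves fell with the stricter ATAC-seq rules: in the quiescent libraries those of quiescent-only and activated-only regions were 46.7% and 36.1%, 30.0% and 20.8% with the summit inside and 29.3% and 22.6% with −log10 q of at least 10. In the activated libraries 49.4% and 50.2% became 32.8% and 30.2% with the summit inside, and in the reactivated ones 77.9% and 74.2% became 56.5% and 46.2%. With ATAC-seq lists of equal length, the reactivated share of activated-only regions was 52.3%. The groups then differed by 1.17 points in the reactivated libraries, in place of 3.63. Leaving out 1 library gave differences of 10.2 to 11.1 and -1.95 to 0.40.

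The astrocyte list had 4 to 8 genes with a quiescent-only peak over all member rules, and 1 with an activated-only peak with equal lists or with both lists limited. These counts, and the exclusion of masked regions, were added after seeing the data. In all, 26 of 74 main values and 50 of 170 others moved beyond their counting interval, spread or 1.5-fold limit. This tally does not measure stability, because some of the checks could hardly move. ATAC-seq shares were held to the standard deviation of the 2 libraries, which leaving out 1 library cannot exceed. Medians of width, fold enrichment, GC and CpG ratio were held to the interquartile range of single regions, a wide limit.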
